A study of Pinus pinaster with 24 samples.

Results

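The response of developing root vascular tissue to nitrate was followed in maritime pine (Pinus pinaster) seedlings with 6 laser-microdissected libraries, out of 24 libraries from 4 areas of the root tip. The libraries were chosen by their labels: 3 came from developing vascular tissue of seedlings given potassium nitrate (NO3K in the labels) and 3 from the same tissue of seedlings given KCl. Of the 51211 transcripts in the deposited table, 42254 reached 1 CPM in at least 3 of these 6 libraries and were tested, and 8957 were left out. CPM is the authors' name for their read counts after scaling by a factor per library.

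All seedlings were 1 month old, came from the Segura-Alcaraz provenance and had spent 3 days on a nutrient solution that lacked nitrogen. They then received 80 mL of either salt at 3 mM, and root tips were frozen 2 h later. Both salts supply potassium, so the groups differ in the anion, nitrate or chloride. The vascular area was cut from sections of 30 µm and only approximately matches the tissue it is named for. The sources used here do not state how many seedlings entered a library or whether the 3 numbered experiments were separate cultures. The p-values therefore cover only the differences seen among these libraries, which may be technical.

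Nitrate is both the main form of inorganic nitrogen that many plants take up and a signal. In Arabidopsis, nitrate is sensed in the cell, and transcription factors of the NIN-like family then switch on genes of uptake, transport and reduction within minutes. Vascular tissue loads nitrate and its products into the xylem and carries hormone signals about nitrogen between root and shoot. The transcript IDs of this table are not paired with gene names in the sources used here, so no pathway or tissue marker list could be applied and the labelled tissue could not be checked against its defining genes. Transcripts are therefore described by their levels and by their pattern over libraries.

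Each vascular library held 45466968 to 51212313 reads, and a single read was worth 0.0181 to 0.0217 CPM. Between 3.48% and 4.21% of all transcripts in the table had no read in a library. Over the tested transcripts, Pearson's r (a description, since transcripts of a library are not independent) was 0.924 to 0.948 within KCl, 0.942 to 0.961 within nitrate and 0.884 to 0.951 between the solutions. The lowest r was between KCl replicate 1 and nitrate replicate 2. KCl replicate 1 also stood apart in its content of tissue-restricted transcripts, described below. Several results are given with and without it, while counts by size of change and shares by level class are given only with it.

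A small number of transcripts passed the test in vascular tissue, most of them higher with nitrate. By limma on the 6 libraries, 21 transcripts rose and 2 fell at an adjusted p below 0.05 (Benjamini-Hochberg), which is 0.0497% and 0.00473% of those tested and 0.0544% together. The rises were 1.44 to 5.19 on the log2(CPM + 0.5) scale, with a median of 3.9. In most of them the transcript was close to absent with KCl: 17 of the 21 stayed below 1 CPM in every KCl library and passed the filter through the nitrate libraries alone, as did 255 of all transcripts tested. Both falls passed through the KCl libraries alone, as did 61 of all transcripts tested. Because these are tissue pieces, fewer cells with a transcript and less of it per cell cannot be told apart.

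The 23 calls may not stand for as many separate genes. Their ID numbers formed 11 groups when IDs within 10 of the next called one were joined, namely 3 runs that hold 15 rises and 8 single IDs, of which 6 rose. In the table as a whole, the nitrate changes of transcripts with consecutive numbers were alike (Pearson's r of 0.614 over 27251 pairs), while those of neighbours more than 50 numbers apart were not (r of 0.0246 over 850 pairs). These correlations describe the table, since members of a pair come from the same libraries and may share reads. The sources used here do not say whether near IDs are copies, isoforms or pieces of a gene.

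The longest run had 8 transcripts and the largest changes. In KCl its members had at most 0.211 CPM in any vascular library. With nitrate they had 7.06 to 17.1 CPM in replicate 1, 17.7 to 40.6 in replicate 2 and 8.37 to 13 in replicate 3. The groups were far apart for every member, and nitrate replicate 2 was the highest library for each. The changes were 4.39 to 5.19 on the log2 scale, with adjusted p between 0.0166 and 0.0326 (limma). Over the 24 libraries the log2 levels of the 8 members had a Pearson's r of at least 0.987 with one another, which describes how alike they are and rests on libraries from 4 areas. The 3 listed IDs on either side of the run changed by -0.075 to 0.16, so the rise began and ended sharply along the numbering.

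The next run had 5 called transcripts, with a sixth listed between them that was too low to be tested. That sixth transcript had 0, 0 and 0.0362 CPM with KCl and 0.297, 1.18 and 0.801 CPM with nitrate. The 5 members reached at most 0.996 CPM with KCl and lay between 5.57 and 29.4 CPM with nitrate. One of them, pp_135397, shared the smallest adjusted p of the comparison. It had 0.127, 0.238 and 0 CPM in KCl replicates 1 to 3 and 10.9, 19 and 16.1 CPM in nitrate replicates 1 to 3. Every nitrate library was far above every KCl library. Its change was 4.65 ± 0.26 on the log2 scale (SE, n = 3 against 3), with an adjusted p of 0.0103 by limma.

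The third run is the pair that begins with pp_103534. This transcript had 0, 0.108 and 0.0725 CPM with KCl and 7.39, 6.88 and 6.03 CPM with nitrate, which makes it the steadier of the named rises among nitrate libraries. The group means were 0.0602 ± 0.0551 and 6.77 ± 0.69 CPM (SD, n = 3 each). Its KCl mean rests on 9 reads over the 3 libraries, close to the 3 reads per library taken as the detection limit. The change was 3.7 ± 0.2 (SE), with an adjusted p of 0.0103 by limma. The other member of the pair had a change of 3.3.

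The 6 single rises were smaller, 1.44 to 2.57 on the log2 scale, and 4 of them were already above 1 CPM with KCl. The most abundant of all called transcripts was among these. It had 50.6, 33.3 and 39.9 CPM with KCl and 148, 190 and 145 CPM with nitrate, a change of 1.96. The least changed one had 10.5, 11.4 and 13.4 CPM with KCl and 32.5, 33.8 and 31.4 CPM with nitrate, so a rise of 1.44 was called where replicates lay close together. In both, the solutions did not overlap.

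**Figure D1:**
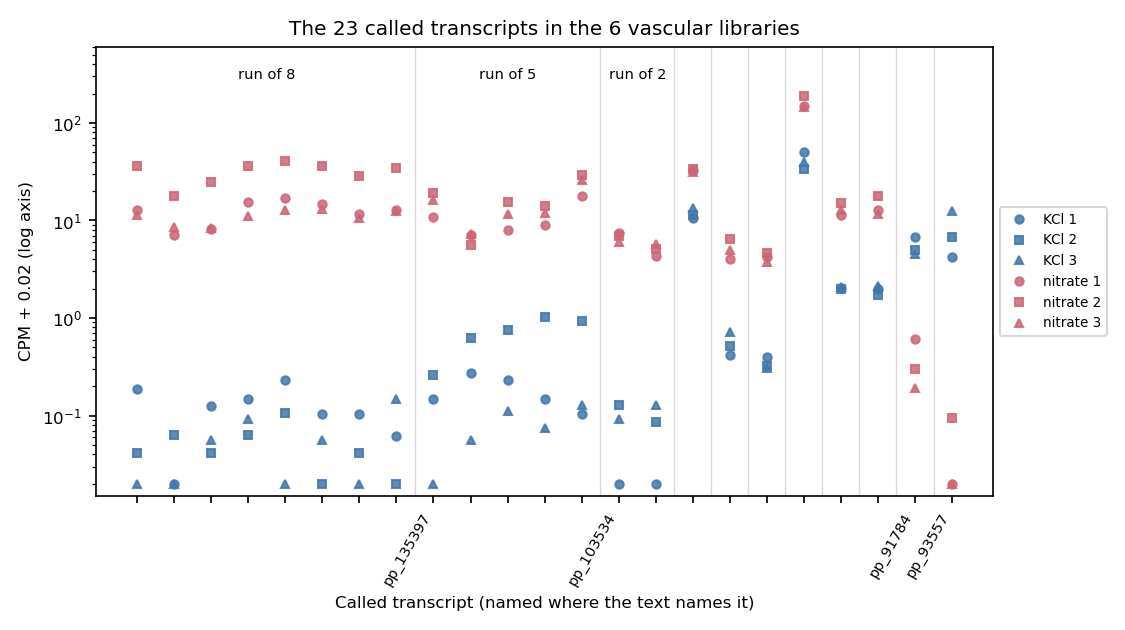
Level of each of the 23 called transcripts in the 6 vascular libraries, as CPM + 0.02 on a log axis (0.02 was added only to draw zeros). Points are libraries, with colour for the solution and shape for the replicate; grey lines part the groups of near ID numbers, and nitrate and KCl points do not overlap in any of the 23.

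Limma called 2 falls. The transcript pp_91784 had 6.71, 5 and 4.51 CPM with KCl and 0.594, 0.281 and 0.172 CPM with nitrate. It was low but still detected in all 3 nitrate libraries, and its change was -2.81 ± 0.26 on the log2 scale (SE, n = 3 against 3; adjusted p = 0.0326, limma). The transcript pp_93557 had 4.18, 6.75 and 12.4 CPM with KCl, while nitrate left 4 reads in all, at 0, 0.075 and 0 CPM. Its change was -3.86 ± 0.37 (SE), with an adjusted p of 0.0348 by limma. The KCl libraries of pp_93557 themselves ranged widely, which those of pp_91784 did not.

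These calls depend on the libraries and on the tool. Without nitrate replicate 1 or nitrate replicate 3, limma called 0 transcripts (smallest adjusted p of 0.0704 and 0.0847), with 5642 and 4548 at an unadjusted p below 0.05, although the change of pp_103534 was then 3.64 and 3.77 against 3.7 with all libraries. Without KCl replicate 1 it called 54, with 20 of the 23 among them, without KCl replicate 2 it called 11 and without nitrate replicate 2 it called 14. On the recovered reads of the same 6 libraries, edgeR's quasi-likelihood test called 0 (smallest adjusted p of 0.0508, and 5480 at an unadjusted p below 0.05), while DESeq2 called 913, which is 2.16% of those tested, as 556 higher and 357 lower. When all 24 libraries shared an estimate of the spread, limma called 241 (0.57%), including all 23, and edgeR called 92 (0.218%), including 21 of the 23. Both of these fits take the 24 libraries as independent, although libraries of a solution and number deviated together across areas (described below).

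Beyond the calls, many transcripts moved by less. At an unadjusted p below 0.05, limma had 3658 higher and 2248 lower transcripts, 8.66% and 5.32% of those tested and 14% together. These counts were 1865 and 1261 without nitrate replicate 2, and 2568 and 1346 without KCl replicate 1. The split between directions followed the scaling, from 61.9% higher with the deposited values to 53.9% with median-of-ratios scaling, 51.8% with quantile normalization and 80% when the recovered reads were divided by the library total alone. The middle of the distribution hardly moved: the quartiles of the change were -0.195 and 0.276, with a median of 0.0234 on the log2 scale. Division by the library total alone placed that median at 0.111.

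Large changes were mostly rises. At least 4-fold differences on the log2(CPM + 0.5) scale were found in 147 transcripts upward and 33 downward, and in 107 and 12 of these the nitrate and KCl libraries did not overlap. At 8-fold or more the same counts were 31 and 5, with 25 and 2 free of overlap, and at 16-fold or more 11 and 0. In comparison, nitrate libraries lay above all KCl libraries in 12.4% of all tested transcripts and below them in 8.88%, whatever the size of the change. The 107 larger rises belonged to 58 groups of near IDs and had a median level of 8.43 CPM, and the 12 falls to 11 groups.

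**Figure D2:**
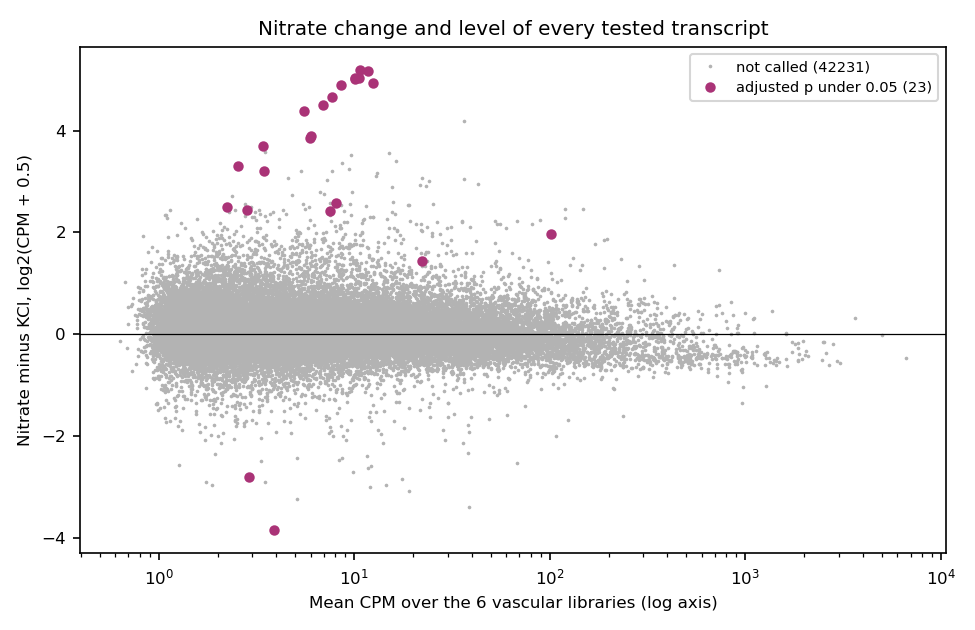
Nitrate minus KCl change on the log2(CPM + 0.5) scale (vertical) against the mean CPM over the 6 vascular libraries (log axis) for the 42254 tested transcripts. The 23 called transcripts are drawn large: 21 lie at 1.44 to 5.19 and 2 lie at -2.81 and -3.86.

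Few transcripts were switched fully on or off. No read was found with KCl for 941 transcripts of the whole table and none with nitrate for 907, and 562 of these had no read with either. Among the first, 19 averaged at least 1 CPM with nitrate, but 13 of them reached 1 CPM in a single nitrate library and only 1 did so in all 3. Among the second, 49 averaged at least 1 CPM with KCl, 28 reached 1 CPM in a single library and 2 in all 3. Most of these transcripts thus reached 1 CPM in only some libraries of a solution.

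The 2 that were present in every KCl library and without a read in any nitrate library did not pass the limma test. For pp_86567 the KCl libraries had 2.91, 1.67 and 3.04 CPM, with an adjusted p of 0.0666 by limma. Their mean, not each library, was at least 45.1-fold above the limit of 3 reads per library in nitrate. For the other, pp_93556, the KCl libraries had 2.09, 2.79 and 5.58 CPM, with a mean at least 61.8-fold above the limit and an adjusted p of 0.0858. Its number directly precedes that of the called fall pp_93557, so it may not stand for a separate gene. The reverse case had 1.45, 1.73 and 3.3 CPM with nitrate and no read with KCl. Like the 2 transcripts without a nitrate read, it was chosen after its values were seen. Its nitrate mean was at least 35.4-fold above the limit, with an adjusted p of 0.126 by limma.

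The most abundant transcripts had mostly negative changes, none of which passed the test. The 100 transcripts with the highest mean, all at 829 CPM or more, took 17.7%, 16.6% and 14.7% of the library total in KCl replicates 1 to 3 and 15.2%, 12.7% and 13.5% in nitrate replicates 1 to 3. The highest nitrate library thus overlapped the lowest KCl library. Their median change was -0.403, against 0.0234 over all transcripts tested, with 86 negative and 14 positive values. At the adjusted threshold 0 were called, and 44 were lower and 4 higher at an unadjusted p below 0.05, where the table as a whole had 5.32% and 8.66%. Without KCl replicate 1 the median was -0.299, and 16 were lower and 1 higher at an unadjusted p below 0.05 (limma). Quantile normalization, which gives every library the same distribution of values, left a median of -0.0672. The same 100 transcripts, with each area's own libraries, had median changes of -0.244 in the cap libraries, 0.0522 in those of the meristem and 0.123 in those of the cortex.

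The balance of directions shifted with the level of expression. In transcripts averaging up to 2 CPM, 6.58% were higher and 2.23% lower at an unadjusted p below 0.05. At 5 to 20 CPM the shares were 9.94% and 4.7%, and at 20 to 100 CPM they were nearly equal, 10.6% and 9.69%. Above 100 CPM, 7.45% were higher and 26.8% lower, and the median change was -0.194. That median was -0.227 with median-of-ratios scaling, -0.0584 with quantile normalization and -0.0957 when reads were divided by the library total alone. With the deposited values but without KCl replicate 1 it was -0.149. Of the 23 calls, 21 lay between 2 and 20 CPM, 1 between 20 and 100 and 1 above 100.

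**Figure D3:**
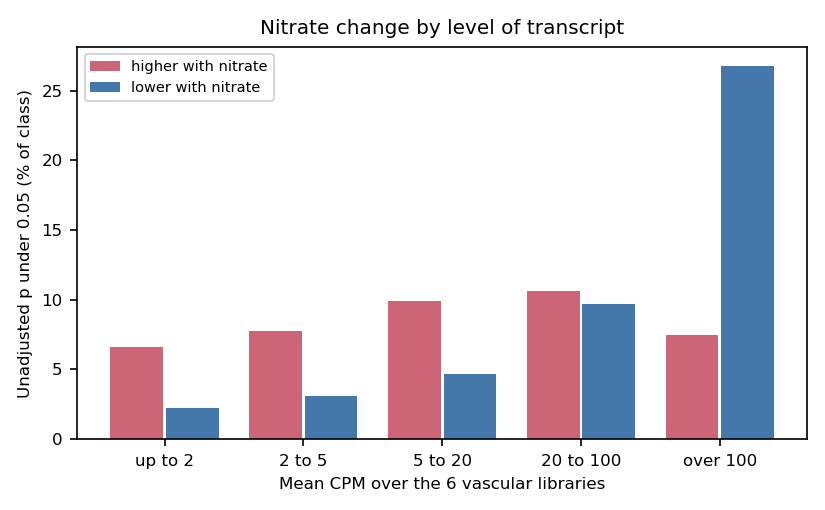
Share of tested transcripts at an unadjusted limma p below 0.05, in percent, by mean CPM over the 6 vascular libraries. Red bars are higher and blue bars lower with nitrate; the lower share grows from 2.23% in the lowest class to 26.8% above 100 CPM.

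Transcripts restricted to a tissue area served as a measure of what the vascular libraries held. A transcript counted as restricted when its mean over both solutions was at least 16-fold above each other area it was compared with. By this rule 421 transcripts were vascular-restricted, which used the levels of the vascular libraries of both solutions. Lists for the cap (1627 transcripts), the cortex (250) and the meristem (25) were set from the levels in those areas only, without vascular values.

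The vascular-restricted list took 0.174%, 0.572% and 0.694% of the total in KCl replicates 1 to 3 and 0.551%, 1.14% and 0.853% in nitrate replicates 1 to 3. KCl replicate 1 was far below the other 5 libraries, and the solutions overlapped. Of the list, 416 were tested, with 0 calls after adjustment. At an unadjusted p below 0.05 (limma), 118 (28.4%) were higher and 0 lower, beside 8.66% and 5.32% of all tested transcripts. The list was chosen from the levels in these same vascular libraries, nitrate ones included. Its shares, counts and median change are therefore not independent of that choice. The comparison with all tested transcripts cannot tell an effect of nitrate from an effect of the choice. Without KCl replicate 1 the counts of the list were 88 higher and 14 lower. The median change was 0.83 with all libraries and 0.322 without KCl replicate 1. Leaving out that library thus lowered the median and brought in members on the lower side.

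The same library was lowest for the neighbouring areas. Cortex-restricted transcripts took 0.0996%, 0.136% and 0.346% with KCl and 0.326%, 0.402% and 0.375% with nitrate. Cap-restricted transcripts took 0.0264%, 0.0757% and 0.0969% with KCl and 0.0636%, 0.109% and 0.0905% with nitrate, so both lists were below 1% of every vascular library. A two-sided exact permutation test over 3 against 3 libraries cannot give a p below 0.1, so no list could pass it. The median changes of the tested members were 0.736 for the cortex list (96 tested) and 0.441 for the cap list (121 tested), and 0.618 and 0.0931 without KCl replicate 1. The meristem list had a median of -0.345 (16 tested), and -0.28 without that library. At an unadjusted p below 0.05 (limma), 27 of the cortex list (28.1%) were higher and 2 lower. In the cap list 19 (15.7%) were higher and 0 lower, and in the meristem list 0 and 1. Of all tested transcripts, 8.66% were higher and 5.32% lower. Without KCl replicate 1 the higher shares were 24% (cortex), 10.7% (cap) and 6.08% (all). The part of tissue content in the nitrate changes was not tested.

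**Figure D4:**
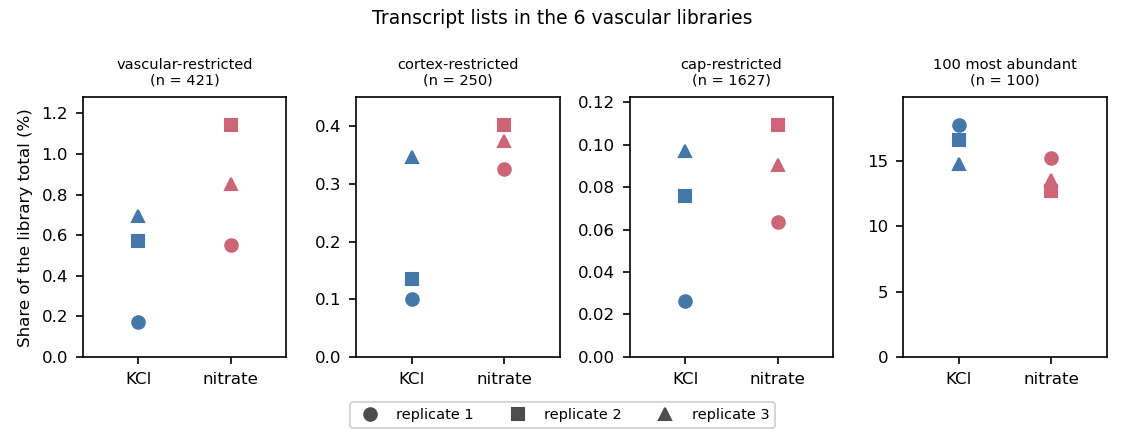
Share of the library total, in percent, of 4 transcript lists in each vascular library (colour for the solution, shape for the replicate, each panel with its own axis from 0). KCl replicate 1 is the lowest library in the 3 restricted lists, at 0.174%, 0.0996% and 0.0264%, and the highest in the list of the 100 most abundant transcripts, at 17.7%.

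The transcripts called in vascular tissue were next read in the other areas, each with its own KCl and nitrate libraries. All 21 rises lay above their KCl libraries in the cortex without overlap, as did 6.66% of all tested transcripts. In the cap this held for 17 of the 21 (3.89% of all) and in the meristem for 16 (5% of all). The median change of the 21 was 3.9 in vascular tissue, 4.38 in the cortex, 2.01 in the cap and 1.55 in the meristem. These 21 belong to 9 groups of near IDs, the largest with 8 members, so the counts and medians lean on that run. The medians of cortex and vascular tissue do not give the order within a transcript. Every member of the 8-member run and every single rise changed more in vascular tissue than in the cortex. Members of the other runs changed more in the cortex. All were chosen for their vascular change. Both falls lay below KCl without overlap in the cortex (6.46% of all) and the meristem (5.14% of all), and 1 of them did in the cap (3.8% of all). Libraries of a solution and number deviated together across areas (Pearson's r of 0.263 to 0.603 across transcripts in 18 pairs of a vascular library and one of another area), so these areas are not independent repeats.

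The 3 runs differed in where they were present with KCl. The 8-member run had mean levels of 1.82 to 4.5 CPM in the cap with KCl, but at most 0.405 CPM in the cortex, 0.213 in the meristem and 0.0992 in vascular tissue. With nitrate it reached 10.2 to 20.1 CPM in the cap, 12.8 to 25.4 in the cortex, 11.1 to 23.5 in vascular tissue and 0.888 to 1.8 in the meristem. Mean levels in vascular tissue and cortex were thus near absence with KCl and about those of the cap with nitrate. Those in the meristem were below 2 CPM with either solution.

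The 5-member run was instead present in the meristem with KCl, at 2.12 to 3.83 CPM, and at or below 0.872 CPM elsewhere. With nitrate it reached 6.64 to 24.4 CPM in vascular tissue, 10.7 to 57.4 in the cortex, 8.89 to 51.9 in the meristem and 1.65 to 12.2 in the cap. For pp_135397 the nitrate means were 15.3 ± 4.12 CPM in vascular tissue, 35.3 ± 20.5 in the cortex, 31.5 ± 19.8 in the meristem and 6.79 ± 4.15 in the cap (SD, n = 3 each). The spread in the meristem and cortex was wide enough that these 3 areas are not ordered by it. The pair with pp_103534 was at or below 0.143 CPM in all areas with KCl and between 4.14 and 12.3 CPM with nitrate.

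**Figure D5:**
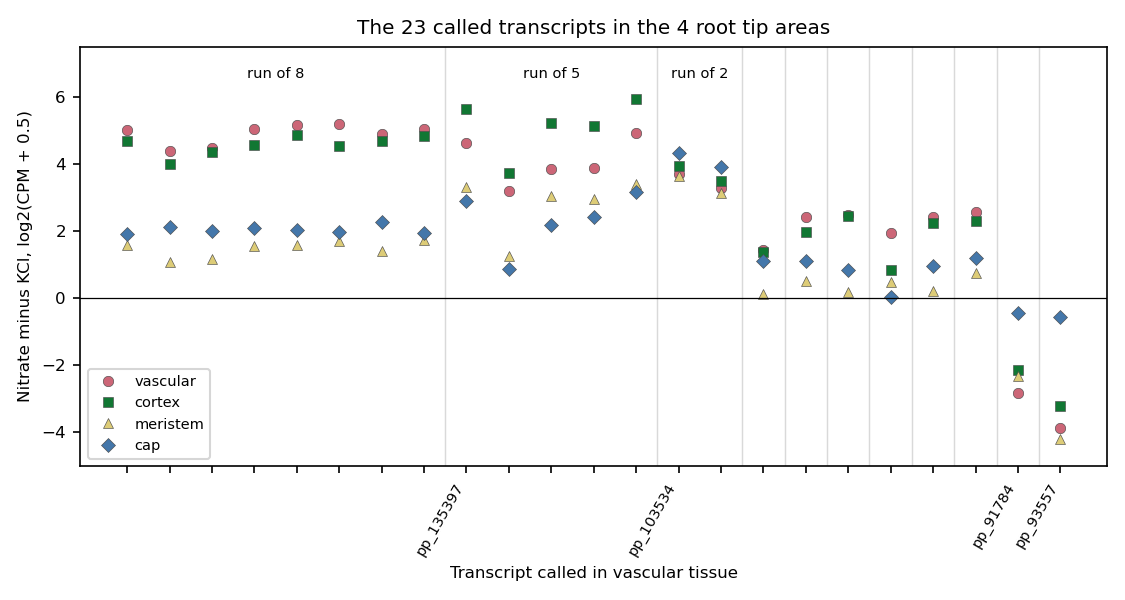
Nitrate minus KCl change on the log2(CPM + 0.5) scale of the 23 transcripts called in vascular tissue, in each of the 4 areas (colour and shape). The first 8 lie at 4.39 to 5.19 in vascular tissue and at 4.02 to 4.87 in the cortex, but at 1.92 to 2.28 in the cap and 1.09 to 1.74 in the meristem.

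Whether the nitrate effect of vascular tissue differed from that of the other areas was tested on the difference itself. For every solution and number, the mean of the other 3 areas was subtracted from the vascular log2 value, and the 3 nitrate differences were compared with the 3 KCl differences. Limma called 0 transcripts (smallest adjusted p of 0.106), with 3262 higher and 1355 lower at an unadjusted p below 0.05, 10.9% together. On all 24 libraries as single values, limma called 31 and edgeR 1. Among the 23 vascular calls, the smallest adjusted p of this difference was 0.125.

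The transcripts ranked closest to a difference did not pass the test. The first of them, pp_86567, averaged 2.54 ± 0.76 CPM in KCl vascular libraries (SD, n = 3) and had no read in the nitrate ones. In the cortex it had 0.282 ± 0.11 CPM with KCl and 0.0662 ± 0.0477 with nitrate, and in the KCl cap and meristem libraries it had no read, so a fall could not be seen in those areas. Its difference was -2.43 ± 0.22 (SE), with an adjusted p of 0.106 on set differences.

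Upward, pp_98282 had 0.127, 0 and 0.598 CPM in vascular tissue with KCl and 2.75, 2.18 and 1.79 CPM with nitrate. Its mean was at most 0.41 CPM in any other group. Single libraries there reached 1.23 CPM (cap, KCl replicate 3) and 0.95 CPM (cortex, nitrate replicate 1). Its difference was 1.93 ± 0.2 (SE, adjusted p = 0.125, limma). The transcript pp_243240 had 0.0422, 0.195 and 0 CPM with KCl and 3.6, 10.3 and 6.83 CPM with nitrate in vascular tissue. It averaged 3.24 ± 2.67 CPM with nitrate in the cortex (SD, n = 3) and 0.658 ± 0.488 in the meristem, and its difference was 2.38 ± 0.26 (SE, adjusted p = 0.125). Neither passed the threshold for the difference. The fall of pp_93557 was second among the lower ones, with a difference of -1.2 (adjusted p = 0.226, limma). Against single areas the difference was -3.3 for the cap, -0.643 for the cortex and 0.328 for the meristem. In the cap pp_93557 averaged only 0.326 CPM with KCl, so little of a fall could be seen there. Its change was -3.86 in vascular tissue, -3.22 in the cortex and -4.19 in the meristem. Its meristem means were 10.5 ± 7.22 CPM with KCl and 0.0129 ± 0.0223 CPM with nitrate (SD, n = 3).

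The wider set of 107 transcripts that were at least 4-fold higher in vascular tissue without overlap had a median change of 2.41 there. In the other areas' own libraries their median changes were 1.33 in the cortex, 0.475 in the cap and 0.342 in the meristem, and 65 of them were above KCl without overlap in the cortex (6.66% of all tested), 31 in the cap (3.89%) and 34 in the meristem (5%). These transcripts were chosen for their vascular change, so their vascular median is partly set by that choice, which also holds for the falls. Called rises of at least 4-fold are among the 107, and both called falls are among the falls. The counts and medians are therefore not separate from those of the calls. The 12 corresponding falls had a median of -2.69 in vascular tissue, -2.19 in the cortex, -2.36 in the meristem and -1.12 in the cap. A further 18 transcripts were higher and 5 lower at an adjusted p of 0.05 to 0.1 by limma, with median changes of 2.27 and -2.57.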

How the data were processed

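The deposited table holds 51211 transcripts in 24 libraries. Its values, which the authors named CPM, are a scaled count signal whose column totals differ, and bcl2fastq and BWA were used, per the submitters' processing notes. No source used here names the counter, the reference transcriptome or the scaling. In the 6 vascular libraries, every value (100%) was a whole number of reads within 0.02 reads. The tests planned for CPM were kept for this signal. The test was limma 3.58.1 (variance trend, R 4.3.3) on log2(CPM + 0.5) of the 6 vascular libraries, for transcripts at 1 CPM or more in 3 or more of them. This scale understates changes of low transcripts. Calls have an adjusted p below 0.05, and edgeR 4.0.16 and DESeq2 1.42.0 were run on the recovered reads as alternatives. Restricted lists used 16-fold with 0.05 CPM added and a minimum of 1 CPM. Named transcripts are the 2 higher and 2 lower ones with the smallest p and an absolute log2 change of at least 1 for each of the 2 tests; for the difference between areas, where none passed, the smallest unadjusted p was taken. No source names molecular identifiers for the amplified libraries, so detection limits cover counting error only. No pair of replicates looked like a library deposited again (mean chi-square of 35.8 to 78.3 per transcript). The libraries and lists were chosen with earlier results of these data known.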

Additional observations from a re-analysis of the deposited data

How the results depend on the processing

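The 21 rises and 2 falls were the same 23 transcripts under median-of-ratios scaling and quantile normalization, and all 23 were among 27 when recovered reads were divided by the library total alone. The counts of rises and falls were 219 and 22 by limma on all 24 libraries, 80 and 12 by edgeR on these, 0 and 0 by edgeR on the 6 vascular libraries and 556 and 357 by DESeq2. They were 8 and 0 with no filter and 12 and 0 with a filter of 5 CPM, which also change how many transcripts are tested. Falls numbered 1 with a pseudocount of 0.1 and 1 with a pseudocount of 1. Leaving out 1 library gave 0 to 48 rises and 0 to 6 falls. The difference between areas had 0 calls by set differences, 31 by limma and 1 by edgeR on all 24 libraries, 1 with a pseudocount of 0.1, 3 with no filter, and 0 to 1 when a number was left out. The causes were not tested.

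Over the alternatives, the named changes kept their sign. The adjusted p of pp_103534 passed in 15 of 21 alternatives and that of pp_135397 in 16 of 21. Those of pp_91784 and pp_93557 passed in 9 and 11 of 20. For the difference between areas, pp_93557 turned to 0.33 when only the meristem was compared. The share of meristem-restricted transcripts was 0.00509 percentage points higher with nitrate, and -0.00621 to 0.011 without 1 library, the lowest without nitrate replicate 3. Chosen after seeing the data, other scalings turned the median change of all transcripts to -0.0063 (median-of-ratios) and -0.0366 (quantile).

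The replicate numbers were checked for pairing of the solutions. Deviations from the group means correlated at 0.349, 0.199 and 0.0135 for numbers 1 to 3. So few values cannot settle whether KCl and nitrate libraries of a number share more than the number. With the replicate block, 0 transcripts rose and 0 fell by limma (smallest adjusted p of 0.0639) and 0 and 0 by edgeR, and the difference between areas had 0 calls; at an unadjusted p below 0.05, the block fit had 4548 higher and 2736 lower by limma. Not every library correlated best with its own number. Depth limits vascular values below 3 reads per library, which is 0.0609 CPM with KCl and 0.0564 CPM with nitrate on average.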
